A study of Mus musculus with 6 samples.

Results

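The genes described here are Cdc42 and 8 genes named as its effectors or partners, and they were taken by symbol from the gene tables of 6 hippocampal libraries. All 9 names were found, each on 1 of the 15639 rows of the tables, and all 9 passed a filter of at least 1 FPKM (fragments per kilobase of gene, scaled to the mapped reads of the library) in at least 3 libraries, which left 13700 genes. Total RNA came from the hippocampus of mice aged 6 months. Values are given in the order of replicates 1 to 3. A set of 3 libraries was labelled WT, the wild-type control, and a set of 3 APP/PS1, mice that carry the APP695swe and PS1-dE9 mutations. The labels give neither the promoter that drives the transgenes nor the strain or sex of the mice, and they do not say that the replicates are separate animals, so the tests cover no more than the variation among these 6 libraries, part of which may be technical. The family was chosen by the gene values of Cdc42se1 in this contrast of labels, and its other members by name. The difference of Cdc42se1, and with it the contrast of labels for all 9 genes, is therefore given as a description. The fit over all genes includes the 9, and nothing is read from its calls for them.

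Cdc42 is a small GTPase that cycles between an inactive GDP-bound and an active GTP-bound form. Exchange factors load it with GTP, GTPase-activating proteins switch it off, and dissociation inhibitors hold it in the cytosol. In its active form it binds effectors, many of which carry a short motif known as CRIB. It directs actin assembly, cell polarity and, in neurons, the growth of filopodia, axons and dendritic spines. Cdc42se1 and Cdc42se2 encode very small CRIB proteins also known as SPEC1 and SPEC2. Cdc42ep1 to Cdc42ep4 encode members of the Borg family, which bind septins. Cdc42bpa and Cdc42bpb encode the MRCK kinases, which act on myosin.

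The libraries labelled WT replicate 3 and APP/PS1 replicate 2 went against their labels by App, the amyloid precursor protein gene. App was listed at 69.8, 68.5 and 146 FPKM under the WT label and at 153, 71.0 and 166 FPKM under the APP/PS1 label, and Prnp, the prion protein gene, split them in the same way. Log2 differences of the 9 genes, of the neighbours of Cdc42se1 and of the named pathway genes are therefore given with all 6 libraries and with the 4 that remain without this pair. In those 4 the label and the level of App coincide, so they cannot be told apart there. The FPKM of all genes added up to 182355 in the lowest and 185217 in the highest library, and the number of reads behind a value is unknown. Markers of hippocampal pyramidal neurons, dentate granule neurons, interneurons, oligodendrocytes, astrocytes, microglia, endothelium, choroid plexus and leptomeninges were all listed above 0 in every library. The summed myelin markers were between 297 and 380 FPKM under the WT label and between 359 and 434.5 FPKM under the APP/PS1 label, all 7 with a positive fold change, and the summed dentate granule markers were between 60.9 and 79.4 and between 49.7 and 56.7 FPKM, all 5 tested with a negative fold change. All 6 choroid plexus markers and all 6 endothelial markers also had a positive fold change. Their sums overlapped between the labels, at between 863 and 1208 against between 1120.2 and 1396 FPKM for choroid plexus and at between 30.4 and 32.3 against between 31.3 and 39.1 FPKM for endothelium. The mitochondrial share of FPKM was between 8.87% and 9.31% against between 9.70% and 11.3%. The part of these shifts in the values below was not tested, and in whole tissue fewer cells of a type and less RNA per cell cannot be told apart.

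Cdc42se1 was listed at 14.8, 14.5 and 14.7 FPKM under the WT label and at 6.43, 6.32 and 5.53 FPKM under the APP/PS1 label. All 3 APP/PS1-labelled values lay far below the lowest WT-labelled value, and the values within each label were close together. The means were 14.7 ± 0.189 FPKM (SD, n = 3) and 6.09 ± 0.489 FPKM (SD, n = 3), a ratio of 2.41 in FPKM. On the scale of log2(FPKM + 1) the difference, APP/PS1 minus WT, was -1.14 with an SE of 0.0654, and in the 4 libraries -1.17 with an SE of 0.0851. Leaving out single libraries gave between -1.18 and -1.09. The level of Cdc42se1 followed the label in 6 of 6 libraries and not the level of App. As the gene was chosen by its values in this contrast of labels, this is a description and no test of label against App. WT replicate 3, with high App, had 14.7 FPKM of Cdc42se1, and APP/PS1 replicate 2, with low App, had 6.32 FPKM. By the size of its log2 difference Cdc42se1 ranked 20 among the 13700 tested genes, and its coefficient of variation over all libraries, 45.3%, exceeded that of 98.5% of them.

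**Figure D1:**
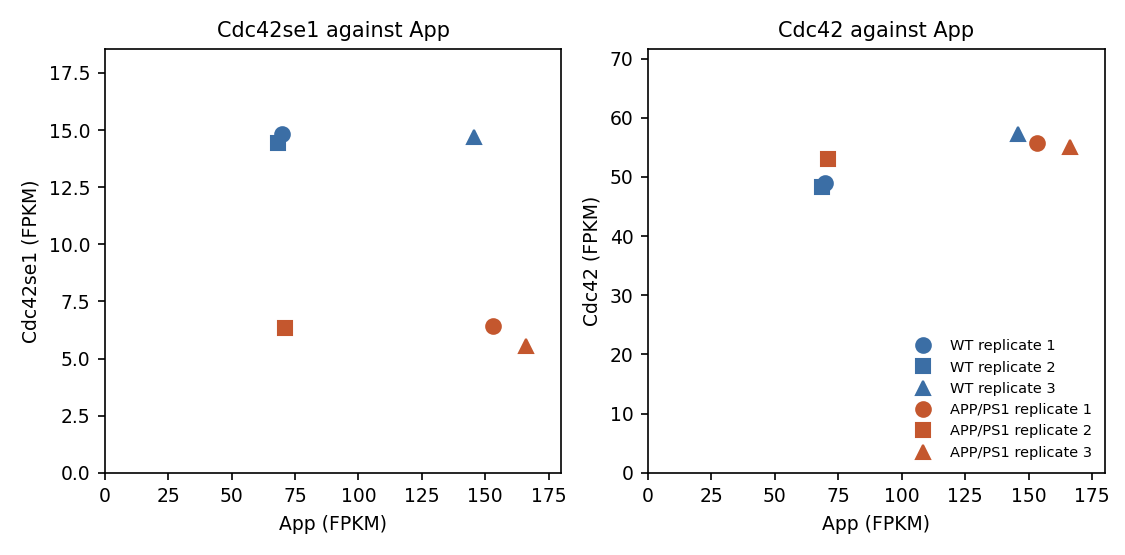
FPKM of Cdc42se1 (left) and of Cdc42 (right) on the vertical axes against FPKM of App on the horizontal axes, 1 point per library, with colour for the label and shape for the replicate. Cdc42se1 stands near 14.7 FPKM in every WT-labelled library and near 6.09 FPKM in every APP/PS1-labelled library at both levels of App, while the 3 libraries with high App have the 3 highest values of Cdc42. The order of Cdc42 by App was not tested.

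Between labels, 1 of the 9 genes passed an adjusted p of 0.05 on the lower side, Cdc42se1, and 0 on the higher side, in a fit over all genes where 0.0219% of the 13700 tested genes passed in either direction and 0.0146% on the lower side (limma on log2(FPKM + 1), Benjamini-Hochberg adjustment). The gene was chosen for this result, so nothing is read from the count. The labels did not overlap for the same 1 gene of 9, against 11.9% of all tested genes in either direction and 6.51% on the lower side. The median log2 difference of the 9 genes was -0.07, with 4 positive and 5 negative, against a median of 0.00 over all tested genes. Apart from Cdc42se1, every estimate lay between the 5th and 95th percentiles of all tested genes, which were -0.23 and 0.20. A difference that misses the threshold in 3 against 3 libraries does not show that the levels were equal.

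**Figure D2:**
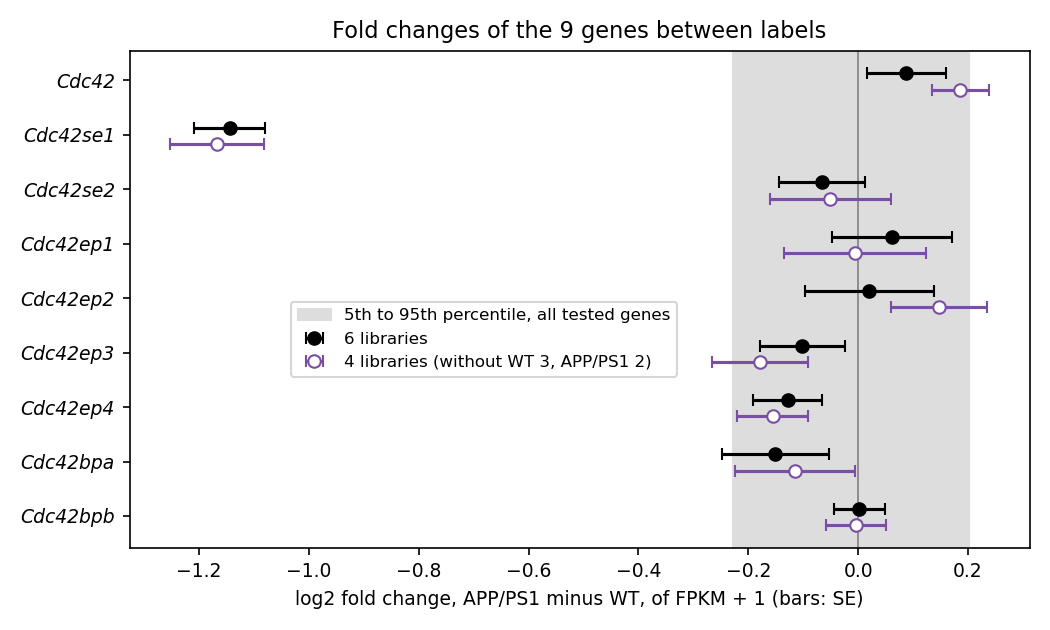
Log2 difference of FPKM + 1, APP/PS1 minus WT, on the horizontal axis for each of the 9 genes, with bars for the SE, in all 6 libraries (filled) and in the 4 without WT replicate 3 and APP/PS1 replicate 2 (open); the grey band holds the 5th to 95th percentile of all tested genes. Cdc42se1 lies at -1.14 and -1.17, outside the band, and the other 8 genes lie inside it.

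In the RefSeq annotation Cdc42se1 has 2 curated transcripts and 2 starts that lie 519 bases apart. The deposited data give 1 value for the gene, so the 2 starts cannot be told apart in these data. The sequences around both starts are shown because Cdc42se1 is the gene that separated by label. Each sequence runs from 250 bases before to 50 bases after the start, 5′ to 3′ on the strand of the gene, from RefSeq on build GRCm38.p6, and capitals mark the GC box GGGCGG or its reverse complement CCGCCC, a motif bound by Sp1 and related factors.
Cdc42se1, first start, chr3:95228174-95228473, plus strand: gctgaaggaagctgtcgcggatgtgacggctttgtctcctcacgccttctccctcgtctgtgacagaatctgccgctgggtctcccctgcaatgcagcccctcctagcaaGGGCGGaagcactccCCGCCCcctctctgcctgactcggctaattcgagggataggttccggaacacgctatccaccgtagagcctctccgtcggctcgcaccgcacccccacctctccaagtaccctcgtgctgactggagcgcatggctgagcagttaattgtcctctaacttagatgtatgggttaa
Cdc42se1, second start, chr3:95228693-95228992, plus strand: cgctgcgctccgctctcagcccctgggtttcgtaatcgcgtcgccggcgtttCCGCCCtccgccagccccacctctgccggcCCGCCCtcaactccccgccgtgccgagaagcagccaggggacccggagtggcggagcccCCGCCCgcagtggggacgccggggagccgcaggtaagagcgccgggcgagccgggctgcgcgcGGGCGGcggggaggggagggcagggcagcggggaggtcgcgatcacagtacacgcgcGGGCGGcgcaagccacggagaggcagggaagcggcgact
The window of the first Cdc42se1 start had a GC content of 59.3%, 19 CpG dinucleotides and 2 GC boxes, more CpG dinucleotides than 71.9% of the 32851 promoter windows in the table. That of the second had 76.7%, 43 CpG dinucleotides and 5 GC boxes, more CpG dinucleotides than 97.4% of the 32851 promoter windows in the table. A GC box on either strand was present in 35.7% of all windows. Neither window held the TATA box TATAAA, the CCAAT box CCAAT, the cAMP response element TGACGTCA or the ETS core CCGGAAG on either strand. Those letters occurred in 13.6%, 37.4%, 1.79% and 8.86% of all windows.

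The second start of Cdc42se1 lies close to an annotated start of Mllt11, a gene expressed in neurons that is transcribed in the opposite direction. This Mllt11 start falls between both Cdc42se1 starts, 253 bases after the first and 266 bases before the second. Its window shares 235 bases with the second Cdc42se1 window printed above. The annotated gene spans overlap by 1209 bases, so the span of Mllt11 begins farther upstream than this Mllt11 start and covers both Cdc42se1 starts. Other Mllt11 starts were not examined. The sources used here do not say whether the authors counted by strand, and without strand the reads of the overlap cannot be assigned to 1 gene. Mllt11 was listed at 64.9, 54.3 and 61.2 FPKM under the WT label and at 67.9, 64.3 and 59.7 FPKM under the APP/PS1 label, and its labels overlapped. Its log2 difference was 0.09 with an SE of 0.0777 (limma adjusted p = 0.895), against -1.14 for Cdc42se1, and in the 4 libraries 0.10 with an SE of 0.110.

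None of the 6 nearest listed genes around Cdc42se1 passed an adjusted p of 0.05 by limma, against 0.0219% of all tested genes. None had an unadjusted p under 0.05, against 6.69% of all tested genes. The labels overlapped for each of the 6, while 11.9% of all tested genes had no overlap. At these shares nothing is read from the counts for 6 genes. On the side of the Cdc42se1 starts the 6 neighbours included Mllt11, the GA-binding protein subunit gene Gabpb2 and the semaphorin gene Sema6c. On the far side they were the phosphatase gene Prune1, the deubiquitinase gene Mindy1 and the ceramide synthase gene Cers2. The log2 differences of the 6 neighbours ran from -0.05 for Prune1 to 0.09 for Mindy1, and in the 4 libraries from -0.12 for Prune1 to 0.11 for Sema6c.

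**Figure D3:**
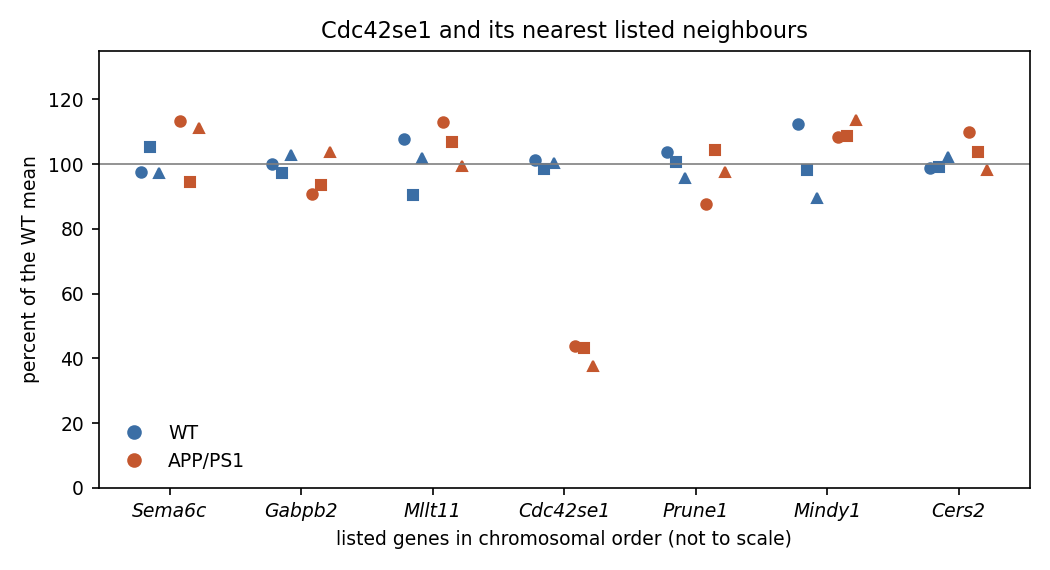
FPKM of Cdc42se1 and of its 3 nearest listed neighbours on each side, as a percentage of each gene's mean over the WT-labelled libraries on the vertical axis, in chromosomal order on the horizontal axis, 1 point per library with shape for the replicate. The APP/PS1-labelled points of Cdc42se1 lie well under those of every neighbour, which scatter around the line at the WT mean.

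Cdc42se2, the other small effector, showed no such separation. It was listed at 35.5, 29.5 and 33.5 FPKM under the WT label and at 33.1, 31.3 and 29.4 FPKM under the APP/PS1 label, and these ranges overlapped almost fully. Its means were 32.9 ± 3.08 and 31.3 ± 1.85 FPKM (SD, n = 3), with a log2 difference of -0.07 and an SE of 0.0787 (-0.05 in the 4 libraries). Leaving out WT replicate 1 gave -0.01 and leaving out WT replicate 2 gave -0.14, the ends of the range over single libraries. Within each library Cdc42se1 stood at 41.7%, 49% and 43.8% of Cdc42se2 under the WT label and at 19.4%, 20.2% and 18.8% under the APP/PS1 label. The sum of both small effectors was 50.4, 44.0 and 48.2 FPKM against 39.6, 37.6 and 35.0 FPKM. Cdc42se2 thus supplied the larger part of the small effector mRNA in every library, and the share of Cdc42se1 in the sum was between 29.4% and 32.9% under the WT label and between 15.8% and 16.8% under the APP/PS1 label.

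Cdc42 itself was the most abundant of the 9 genes, with FPKM above that of 96.8% of tested genes. It was listed at 49, 48.2 and 57.3 FPKM under the WT label and at 55.7, 53.0 and 55.1 FPKM under the APP/PS1 label. The highest value was in WT replicate 3, so the labels overlapped, and the 3 libraries with high App had the 3 highest values. That order was noticed after the values were seen and was not tested. The means were 51.5 ± 5.01 and 54.6 ± 1.42 FPKM (SD, n = 3), with a log2 difference of 0.09 and an SE of 0.0714. Without WT replicate 3 and APP/PS1 replicate 2 the log2 difference was 0.19 with an SE of 0.0520. Label and level of App coincide in those 4 libraries, so they cannot be told apart there. Leaving out single libraries gave between 0.04, without WT replicate 2, and 0.17, without WT replicate 3. Cdc42se1 amounted to 30.3%, 30.0% and 25.7% of the Cdc42 level in the WT-labelled and to 11.5%, 11.9% and 10.04% in the APP/PS1-labelled libraries.

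**Figure D4:**
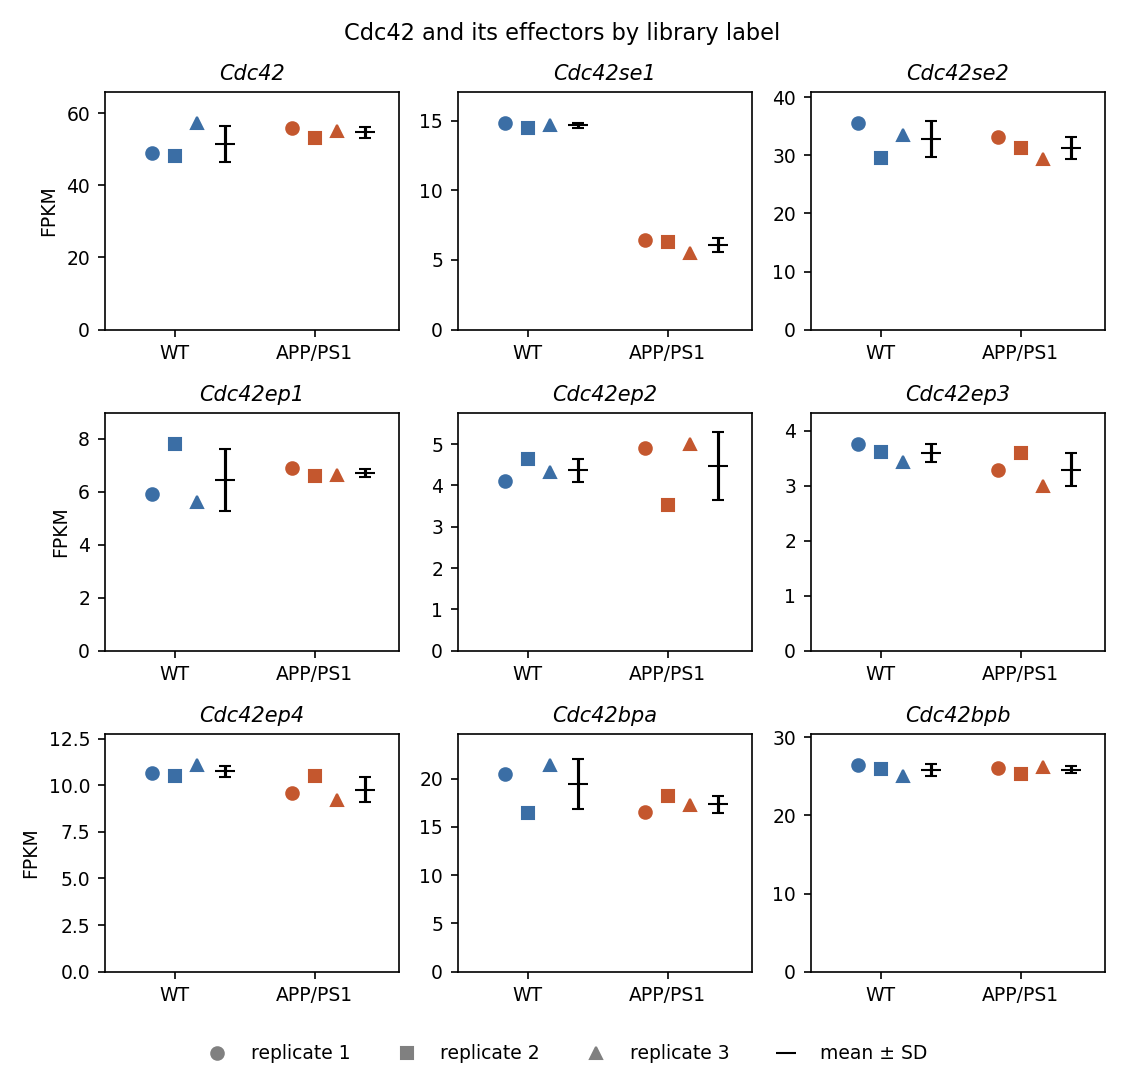
FPKM of Cdc42 and its 8 effectors or partners on vertical axes that start at 0, by label, with 1 point per library, shape for the replicate, and a black mark with a bar for the mean and SD of 3 libraries. In the panel of Cdc42se1 the points of the 2 labels do not overlap, and in each of the other 8 panels they do.

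Of the Borg family genes, Cdc42ep4 was the most abundant, and each of the 4 had overlapping labels. Cdc42ep4 was listed at 10.7, 10.5 and 11.1 FPKM under the WT label and at 9.59, 10.5 and 9.19 FPKM under the APP/PS1 label. The labels met only in APP/PS1 replicate 2 and WT replicate 2, which were nearly equal, and the log2 difference was -0.13 with an SE of 0.0629 (-0.16 in the 4 libraries, and between -0.18 and -0.09 with single libraries left out). Cdc42ep1 was listed at 5.90, 7.81 and 5.63 FPKM against 6.90, 6.59 and 6.64 FPKM. WT replicate 2 was the highest library, and leaving that library out moved the log2 difference from 0.06 to 0.19. The difference was 0.01 without WT replicate 1, -0.02 without WT replicate 3 and -0.01 in the 4 libraries, so its sign rested on which WT-labelled libraries entered. Cdc42ep2 was listed at 4.11, 4.64 and 4.32 FPKM against 4.89, 3.53 and 5.0 FPKM. APP/PS1 replicate 2 was the lowest library of all and the other APP/PS1-labelled libraries were the 2 highest, so that the log2 difference of 0.02 became 0.15 without that library. It was -0.04 without APP/PS1 replicate 1, -0.05 without APP/PS1 replicate 3, -0.01 without WT replicate 1 and 0.15 in the 4 libraries, so its sign turned with the libraries too. Cdc42ep3 was listed at 3.76, 3.62 and 3.43 FPKM against 3.29, 3.6 and 3.01 FPKM, with a log2 difference of -0.10 and an SE of 0.0777 (-0.18 in the 4 libraries, and between -0.15 and -0.05 with single libraries left out). The 3 libraries with high App had the 3 lowest values of Cdc42ep3, while they had the 3 highest of Cdc42. How many of all tested genes split by App in this way was not counted. These orders were noticed after the values were seen and were not tested, so no relation to App is read from them. The summed Borg level was between 24.4 and 26.6 FPKM under the WT label and between 23.8 and 24.7 FPKM under the APP/PS1 label. Cdc42ep5, the fifth Borg gene, was listed between 0.357 and 0.682 FPKM and did not pass the filter.

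The 2 MRCK kinase genes differed in how steady they were. Cdc42bpb was listed at 26.4, 26.0 and 25.02 FPKM under the WT label and at 26.1, 25.3 and 26.2 FPKM under the APP/PS1 label. Its coefficient of variation over the 6 libraries was 2.14%, smaller than in all but 1.06% of tested genes, and its log2 difference was 0.00 with an SE of 0.0467, between -0.02 and 0.02 with single libraries left out and -0.0037 in the 4 libraries. Cdc42bpa was listed at 20.4, 16.5 and 21.4 FPKM against 16.5, 18.2 and 17.3 FPKM. WT replicates 1 and 3 were its 2 highest libraries, while WT replicate 2 was the lowest of all 6. Its log2 difference was -0.15 with an SE of 0.0970, between -0.26, without WT replicate 2, and -0.08, without WT replicate 3, when single libraries were left out, and -0.12 in the 4 libraries. Cdc42bpa stood at between 63.2% and 85.5% of Cdc42bpb across the libraries. Cdc42bpg, which encodes the third MRCK kinase, was far lower, at between 1.2 and 1.69 FPKM.

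By mean FPKM over the 6 libraries, which is scaled for gene length, the order was Cdc42 at 53.1, Cdc42se2 at 32.1, Cdc42bpb at 25.8, Cdc42bpa at 18.4, Cdc42se1 at 10.4, Cdc42ep4 at 10.3, Cdc42ep1 at 6.58, Cdc42ep2 at 4.42 and Cdc42ep3 at 3.45. The ranges of neighbours in this order overlapped for Cdc42se1 with Cdc42ep4 and for Cdc42ep2 with Cdc42ep3, and not for the other neighbours. Cdc42se1 lay above Cdc42ep4 in each WT-labelled library and under it in each APP/PS1-labelled library.

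The rest of the pathway was followed with 95 other genes in 5 lists, of which 93 were in the tables and 88 passed the filter. By limma, 0 of the 88 passed an adjusted p of 0.05 in either direction, against 0.0219% of all tested genes. At that share nothing is read from a count of 0, here or in the single lists below. Of the 88, 4 had an unadjusted p under 0.05, which is 4.55% of them against 6.69% of all tested genes. The median log2 difference of the 88 was -0.01, with 42 positive and 46 negative. The labels did not overlap for 12 of the 88 (13.6%, against 11.9% of all tested genes).

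Among regulators of the Cdc42 cycle, 0 of 15 exchange factors and 0 of 13 tested GTPase-activating proteins and dissociation inhibitors passed, with median log2 differences of -0.03 and -0.05. Mcf2l, the exchange factor with the smallest unadjusted p, had overlapping labels and a log2 difference of -0.22 (limma adjusted p = 0.785), and -0.38 in the 4 libraries. Dnmbp, an exchange factor also known as Tuba, was listed at 2.78, 2.59 and 2.43 FPKM under the WT label and at 2.96, 2.85 and 3.02 FPKM under the APP/PS1 label, without overlap but with a log2 difference of only 0.13 (limma adjusted p = 0.816). Arhgap1, a GTPase-activating protein for Cdc42, had 9.11 ± 1.54 against 7.90 ± 0.427 FPKM (SD, n = 3), and the labels overlapped.

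Among 13 related small GTPases tested, 0 passed and the median log2 difference was 0.01. The gene farthest from 0 was Rnd2, an atypical GTPase of the brain that acts in neuron migration. It was listed at 17.1, 6.34 and 7.73 FPKM under the WT label and at 18.1, 19.5 and 19.4 FPKM under the APP/PS1 label. WT replicate 1 stood near the APP/PS1-labelled libraries and the other WT-labelled libraries far below them. The log2 difference was 0.93 with an SE of 0.332 (limma adjusted p = 0.710), and without WT replicate 1 it was 1.32 (adjusted p = 0.0108). Leaving out any other single library gave between 0.67, without WT replicate 2, and 0.96, without APP/PS1 replicate 1. The limma adjusted p was then at least 0.603, so passing rested on leaving out WT replicate 1. Rac3, a GTPase of neurons, had 4.27 ± 0.155 against 3.77 ± 0.293 FPKM (SD, n = 3) without overlap, at a log2 difference of -0.14 (adjusted p = 0.806).

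Of 27 other effectors tested, 0 passed, 17 had a positive and 10 a negative log2 difference, and the median was 0.02. Fmnl1, a formin that elongates actin filaments, had 19.3 ± 1.99 against 16.8 ± 0.462 FPKM (SD, n = 3), with a log2 difference of -0.19 (limma adjusted p = 0.741). Pak7, a brain-enriched p21-activated kinase, had 6.28 ± 0.336 against 7.29 ± 0.998 FPKM (SD, n = 3), with a log2 difference of 0.18 (adjusted p = 0.806). Of the 20 genes of the actin machinery, 0 passed, 13 were negative, and the median was -0.02. Wipf3, of the WASP-interacting protein family, was listed at 65.4, 62.9 and 67.3 FPKM under the WT label and at 51.3, 60.6 and 51.8 FPKM under the APP/PS1 label. The labels did not overlap, with APP/PS1 replicate 2 nearest to the WT-labelled libraries, and the log2 difference was -0.26 with an SE of 0.0721 (limma adjusted p = 0.611). Arpc1a and Arpc3, subunits of the Arp2/3 complex that nucleates branched actin, had log2 differences of -0.11 and -0.14 (adjusted p = 0.741 and adjusted p = 0.785).

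In the 4 libraries without WT replicate 3 and APP/PS1 replicate 2, the log2 difference was 0.11 for Dnmbp, -0.09 for Arhgap1, 0.78 for Rnd2, -0.19 for Rac3, -0.28 for Fmnl1, 0.25 for Pak7, -0.31 for Wipf3, -0.12 for Arpc1a and -0.19 for Arpc3. Each of these 9 kept its sign, and none passed the threshold, with limma adjusted p between 0.243 for Wipf3 and 0.729 for Dnmbp.

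**Figure D5:**
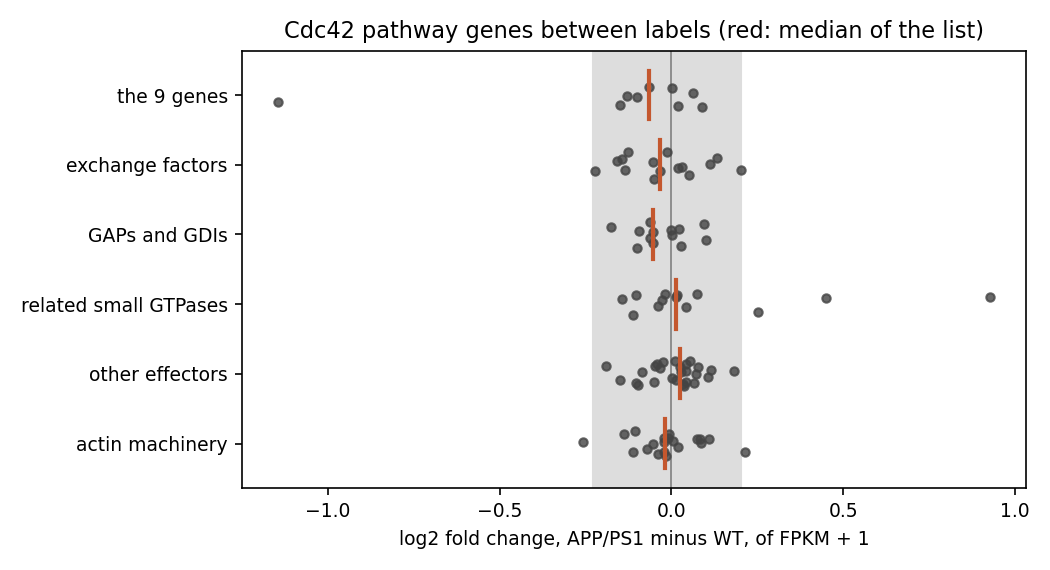
Log2 difference of FPKM + 1, APP/PS1 minus WT, on the horizontal axis, 1 point per tested gene, for the 9 genes and for the 5 lists of other pathway genes, with a red line at the median of each list; the grey band holds the 5th to 95th percentile of all tested genes. Cdc42se1 at -1.14 and Rnd2 at 0.93 lie farthest from 0.

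Genes whose levels followed that of Cdc42se1 over the 6 libraries were ranked by Pearson's r on log2(FPKM + 1). As Cdc42se1 takes 2 levels, such genes are those that separate by label with little spread, and r over 6 libraries was past 0.95 for 55 genes and past the same size with a negative sign for 28 of the 13699 other genes. The highest were Capzb, which encodes the beta subunit of actin capping protein (r = 0.99), Wdr75 (0.98), Rras2, a Ras-related GTPase gene (0.98), Tti2 (0.98) and Spsb1 (0.98). Capzb was listed at 36.7, 37.2 and 37.6 FPKM against 30.3, 31.6 and 29.8 FPKM, a smaller step than that of Cdc42se1, with a log2 difference of -0.27. Rras2 was listed at 6.40, 6.28 and 6.76 FPKM against 4.95, 5.01 and 4.93 FPKM. The lowest were Tmem127 (r = -0.99), Dis3l2 (-0.99), Pik3r1, a regulatory subunit gene of phosphoinositide 3-kinase (-0.99), Ccdc141 (-0.99) and Ints2 (-0.98). Tmem127 was the one gene of these whose step exceeded that of Cdc42se1, with a log2 difference of 2.39. For Cdc42 the genes most alike were Chic1 (r = 0.99), Usp34 (0.99) and Tbc1d15 (0.99), over the same 6 libraries.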

How the data were processed

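Libraries were made from frozen tissue with an Illumina TruSeq kit, per the labels' protocols. The unit of the deposited gene tables was taken to be FPKM. The tables name no unit. FPKM was inferred from the totals per library and from StringTie, which is listed with FastQC, HISAT2 and the build mm9 in the submitters' processing notes without versions or roles. How the authors combined several transcripts of a gene is not stated in the sources used here. Depth is unknown. The deposited circRNA tables held read counts, as whole numbers. Of 2246 circRNAs, 257 had coordinates. Of these, 254 lay inside a gene of the GRCm38 RefSeq annotation, and 0 inside 1 of the 9 genes. The coordinates were not converted between builds, though mm9 is listed, so the 0 holds only if they follow GRCm38. The other 1989 had only a database number, which the files do not pair with genes, so circRNAs were not tested here.

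Tested genes were fitted with limma 3.58.1 in R 4.3.3 (empirical Bayes with trend and robust settings) on log2(FPKM + 1), which understates the change of low genes, with the label as the only term. Benjamini-Hochberg adjustment ran over all 13700 genes, with a threshold of 0.05. The 9 genes, the lists, the tests and the alternatives were chosen with earlier results of these data known. Motifs were chosen after the values were seen. Named were the 9 genes, App and Prnp, members of each pathway list with the smallest p (up to 3 per list, not all printed), the 5 genes highest and lowest in r to Cdc42se1 and the 3 highest to Cdc42 (predicted and clone names left out), and 3 listed neighbours on each side. Cdc42bpg and Cdc42ep5 were named as relatives. Other settings tried were no filter, a mean filter, a pseudocount of 0.1, quantile normalization, TMM factors from edgeR 4.0.16, limma without trend, array weights, a replicate block and libraries left out. The fit was tested on simulated data. Not all items that the rule allows are reported here.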

Additional observations from a re-analysis of the deposited data

How the results depend on the processing

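The log2 difference of Cdc42se1 ran from -1.26 with a pseudocount of 0.1 to -1.09 over 15 alternatives, and as the gene was chosen on these libraries this is no independent support. With the replicate number as a block, the count of the 9 genes past the threshold was 0 and the log2 difference of Cdc42se1 was -1.14. Over tested genes the deviations from the group means correlated at 0.01, -0.06 and -0.09 for equal replicate numbers 1 to 3. Only WT replicate 1 correlated best with its own number, and the highest value was 0.10, for WT replicate 2 with APP/PS1 replicate 3. Such correlations over all genes cannot exclude a pairing that touches part of the genes, so whether equal numbers mark paired libraries is not known. Among the other 8 genes, 0 passed under any alternative. The sign of the log2 difference turned under 5 alternatives for Cdc42bpb, 2 for Cdc42ep1 and 3 for Cdc42ep2, all of which lay near 0.

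The count of all genes past the threshold, 3 with all libraries, was 5 with a mean of at least 5 FPKM, 5 with array weights, 1 with the replicate block and 27 in the 4 libraries without WT replicate 3 and APP/PS1 replicate 2. Leaving out single libraries gave between 2 and 30: 7 without WT replicate 1, 11 without WT replicate 3, and 6, 30 and 5 without APP/PS1 replicates 1, 2 and 3. For the pathway genes leaving out single libraries gave between 0 and 1, the 1 being Rnd2 without WT replicate 1. The cause of these shifts was not tested. No alternatives were run for circRNAs, since none was assigned to the 9 genes. With 6 libraries and unknown depth, small differences of low genes such as Cdc42ep2 and Cdc42ep3 could not be resolved.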
